A study of Mus musculus with 56 samples.

Results

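Livers of mice fed by day were compared with livers of mice fed by night at the moment the lights went off, ZT12 (zeitgeber time, hours after lights on). Of the 56 liver libraries in the gene table, 8 belong to this comparison: D12 replicates 1 to 4 from daytime-restricted feeding (DRF) and N12 replicates 1 to 4 from nighttime-restricted feeding (NRF), the reference regimen. All 8 came from C57BL/6J female mice aged 9 weeks, kept on normal chow in 12 h of light and 12 h of dark, and held on their regimen for the last 7 days. At ZT12 the DRF mice had reached the end of their feeding period and the NRF mice the end of their daily fast. The time in the light cycle was thus the same while feeding state was opposite. The clock genes of the liver also differed between the regimens, as given below. Feeding state and the state of the liver clock therefore changed together and cannot be told apart in this comparison. The 8 livers at ZT0, where the feeding states are exchanged, served as the mirrored time and share no library with ZT12. All mice in both groups were on restricted feeding, so no group fed at will enters the comparison. The labels do not say whether a library holds 1 animal or a pool, so p-values rest on the spread between liver samples. For the tests of genes, that spread was estimated from all 56 libraries and not from the 8 at ZT12 alone.

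The liver switches fuel with each meal. After feeding, insulin and glucose drive glycolysis, glycogen storage, lipogenesis and sterol synthesis, whereas in the fast glucagon, glucocorticoids and fatty acids drive fatty acid oxidation, ketone production and gluconeogenesis. The same cells hold a clock in which ARNTL (BMAL1) with CLOCK or NPAS2 switches on Per, Cry, Nr1d and the PAR bZIP genes, whose products act back on the loop or on output genes, and mealtime is a strong time cue for this liver clock.

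Gene levels are given as scaled counts, which are whole counts recovered from the values the authors deposited and put on a common scale per library. Gene length is not divided out, so levels may be compared between libraries but not between genes. Scaled counts summed to between 933924 and 1008014 in the 8 libraries, over 361 to 661 M recovered counts, and correlations between replicates of a group over 13744 genes lay between 0.967 and 0.987. The recovered counts far exceed the average number of reads per sample that the paper gives. They are therefore not read counts and give no sequencing depth. A log2 difference is DRF minus NRF in log2(scaled count + 1), given ± its standard error from a limma fit over all 56 libraries, with Benjamini-Hochberg adjustment over 25295 genes and n = 4 livers per regimen. Group means are given ± SD of 4 livers.

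Markers of the cell types that a liver sample holds were read first. The summed level of 8 hepatocyte markers ranged over 120156 to 126255 in the DRF livers and 104039 to 137641 in the NRF livers, and none of the 8 passed the test. None of 10 Kupffer cell, 10 sinusoidal endothelial and 8 lymphocyte markers passed either, and no marker tested was at 0 in all 8 libraries. The summed endothelial level was nonetheless lower in every DRF liver, at 546 to 624.7 against 628.7 to 657 under NRF. Erythroid markers were higher under DRF, with 3 of 7 called and summed levels of 913 to 1577 against 501 to 870.4. Of 8 cholangiocyte markers 2 were higher (summed 41.1 to 47.4 against 32.4 to 37.8), of 6 neutrophil markers 1 was lower (summed 2.22 to 3.17 against 3.36 to 4.66), and both pancreatic acinar markers tested were lower (summed 1.88 to 2.5 against 3.32 to 3.63). One of 10 stellate cell markers and one of the pair of adipocyte markers tested, Adipor2, which hepatocytes also express, were higher. The summed stellate level, in contrast, averaged 972.7 ± 32.7 under DRF against 1054.9 ± 61 under NRF, with overlapping ranges. Over all genes tested, 7.07% were higher and 8.13% lower. With so few markers per type, a single call cannot be set apart from these shares. In tissue RNA, fewer cells of a type and less RNA per cell cannot be told apart, and the part of these shifts in the results was not tested. The erythroid count fell from 3 to 1 without DRF replicate 4, without NRF replicate 1 and with the ZT12 libraries fitted alone. The cholangiocyte count was 1 without DRF replicate 3, NRF replicate 1 or NRF replicate 2, and with the ZT12 libraries alone. The acinar count was 0 without DRF replicate 1 and 1 without DRF replicate 3 or 4 or NRF replicate 1, 2 or 3, with the ZT12 libraries alone and with the values as deposited. With the ZT12 libraries alone, the stellate and adipocyte markers did not pass. The two-sided exact permutation test of 4 against 4 libraries allows no p below 0.0286. The sums of the endothelial, cholangiocyte, neutrophil, erythroid, adipocyte and acinar markers reached it (adjusted p = 0.0572 over 14 indices). So did the multiplier of the logarithm in the deposited values of each library. It is not the factor that turns recovered counts into scaled counts. Recovered counts per scaled count overlapped, at 377 to 596 under DRF and 526 to 707 under NRF.

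Day feeding changed 3846 of 25295 genes at ZT12, or 15.2%. Of these, 1789 (7.07% of all genes tested) were higher and 2057 (8.13%) were lower in the DRF livers than in the NRF livers, and the median difference of all genes was -0.002. With the values as deposited, 2058 genes were higher and 1234 lower, which moved the higher share of the calls from 46.5% to 62.5%. A difference of at least 2-fold was called for 342 genes (1.35%), of which 176 (0.696%) were higher and 166 (0.656%) lower. Without any test, the 4 DRF values and the 4 NRF values did not overlap for 4104 genes (16.2%). When the 8 ZT12 libraries were fitted alone, 1850 genes passed and 300 of them by at least 2-fold. Among 15097 protein-coding genes 20.3% were called in the main fit, and the list counts below are to be read beside these shares. Up to 6 members of each pathway list were named for their small p in this contrast. That such members did not overlap between regimens is therefore no further result.

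The gene that rose most was Arntl (ENSMUSG00000055116, chr7:113207465-113314126 on GRCm38.p6, plus strand), the transcriptional activator at the centre of the clock. It was at 55.7, 52.1, 62.2 and 59.4 under DRF and 1.41, 1.53, 1.07 and 1.49 under NRF, so that every DRF liver was far above every NRF liver (log2 difference 4.62 ± 0.19, adjusted p = 9.38e-23), a 41.7-fold ratio of means. Tubb2a (chr13:34074274-34078007), a beta-tubulin gene, was next, at 71.6, 70.2, 73.8 and 74.4 under DRF and 3.31, 3.75, 4.25 and 4.43 under NRF (log2 difference 3.90 ± 0.18, adjusted p = 2.86e-21). Its neighbour on the same chromosome and strand, Tubb2b (chr13:34126748-34130466), was at 8.47, 8.38, 8.42 and 8.79 under DRF and 0, 0.44, 0 and 0 under NRF (log2 difference 3.12 ± 0.28, adjusted p = 1.69e-11). All NRF livers but replicate 2 were at 0 for Tubb2b, and the sequences of this pair of tubulin genes are alike, so that reads may be split between them.

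Enzymes and carriers made up most of the other large increases. Cyp2b10, a drug-metabolizing cytochrome P450, was at 385, 461, 335 and 332 under DRF and 21.2, 49.1, 43.3 and 60.5 under NRF, with no overlap (log2 difference 3.17 ± 0.38, adjusted p = 1.87e-08). Ddc, the decarboxylase that makes dopamine and serotonin, was at 173, 177, 182 and 204 under DRF and 25.9, 27.2, 22.5 and 30.2 under NRF (log2 difference 2.76 ± 0.14, adjusted p = 6.9e-19). Clpx, the unfolding subunit of the mitochondrial ClpXP protease that also activates the first enzyme of haem synthesis, was at 534, 519, 467 and 438 under DRF and 86.4, 83.5, 65.3 and 86.2 under NRF (log2 difference 2.60 ± 0.15, adjusted p = 9.01e-18). Separation of the regimens in all 8 livers was a condition for every gene in this ranking and is not a result. Coq8a, needed for coenzyme Q synthesis, had a wide range among DRF livers, 1018, 867, 679.6 and 466, yet all were above the NRF livers at 98.5, 128, 154 and 134 (log2 difference 2.51 ± 0.25, adjusted p = 1.5e-10). Acnat2, an acyltransferase of peroxisomal fatty acid metabolism, averaged 374 ± 57.1 under DRF against 71.9 ± 44.6 under NRF (log2 difference 2.54 ± 0.26, adjusted p = 3.29e-10). The manganese exporter gene Slc30a10 averaged 29.8 ± 2.88 under DRF against 4.05 ± 1.85 under NRF (log2 difference 2.67 ± 0.20, adjusted p = 5.17e-14). The tight junction gene Cldn1 averaged 66.7 ± 4.77 under DRF against 11.3 ± 1.38 under NRF (log2 difference 2.47 ± 0.14, adjusted p = 3.41e-18), and Lgalsl, a galectin-like gene, 18.1 ± 0.184 under DRF against 2.56 ± 0.599 under NRF (log2 difference 2.44 ± 0.16, adjusted p = 3.67e-16). The exons of Slc30a10 overlap a gene on the opposite strand over 9.13% of their length, and the use of strand in counting is not given in the sources used here.

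The largest decrease was that of Rgs16 (chr1:153740349-153745468), an inhibitor of G protein signalling, at 0.719, 0.334, 0.454 and 0.732 under DRF and 12.8, 27.4, 28 and 24.2 under NRF (log2 difference -3.90 ± 0.48, adjusted p = 3.57e-08). All 4 DRF livers were below 1 scaled count, and its opposite-strand partner Gm28513, which covers 10.1% of its exons, moved with it, from 3.19 ± 1.53 under NRF to 0.121 ± 0.0539 under DRF. Rgs16 in turn covers 38.5% of the Gm28513 exons, and whether reads of one gene were counted for the other was not tested. Dbp followed, and is described with the clock genes. Gpcpd1, a glycerophosphocholine phosphodiesterase, was at 46, 58.5, 50.5 and 34.3 under DRF and 236, 499, 514 and 371 under NRF (log2 difference -3.03 ± 0.20, adjusted p = 1.11e-15). The other decreases that led the ranking included Mup7 and Serpina1e, described last, and Per3 and Nr1d2. Usp2, a ubiquitin-specific protease, averaged 3.95 ± 0.671 under DRF against 35 ± 2.93 under NRF (log2 difference -2.87 ± 0.26, adjusted p = 1.03e-11). Cux2, a homeodomain repressor that is female-biased in mouse liver, averaged 8.16 ± 2.27 under DRF against 52.9 ± 6.07 under NRF (log2 difference -2.59 ± 0.43, adjusted p = 1.73e-05). Pcsk4, a proprotein convertase, averaged 0.927 ± 0.208 under DRF against 10.7 ± 3.8 under NRF (log2 difference -2.53 ± 0.18, adjusted p = 1.18e-14), and Upp2, a uridine phosphorylase, 56.6 ± 9.72 under DRF against 315 ± 34.9 under NRF (log2 difference -2.47 ± 0.25, adjusted p = 2.86e-10). The noncoding Rapgef4os1 averaged 2.34 ± 1.68 under DRF against 13.7 ± 4.75 under NRF (log2 difference -2.24 ± 0.46, adjusted p = 0.000335). That none of these genes overlapped between regimens was a condition of the ranking. Over all genes tested, 16.2% did not overlap.

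The clock was in opposite states in both sets of livers. Of 5 activators tested, 3 were higher under DRF, none was lower and 2 did not pass, with a median log2 difference of 2.0 against 0.00 for all genes. Of 10 repressors, 8 were lower, 1 was higher and 1 did not pass (median -1.46). These counts stayed as they were in every leave-one-out fit. Among the activators, Clock was at 122, 125, 126 and 122 under DRF and 35.2, 26.7, 25 and 34.9 under NRF (log2 difference 2.0 ± 0.16, adjusted p = 1.44e-13). Its paralog Npas2 was at 3.63, 3.25, 4.01 and 3.83 under DRF and 0.0735, 0.0778, 0.0523 and 0.0095 under NRF (log2 difference 2.15 ± 0.17, adjusted p = 2.66e-13). Neither overlapped between regimens, and the NRF livers held almost no Npas2. The nuclear receptor gene Rora, whose product activates Arntl, averaged 199.6 ± 4.11 under DRF against 206 ± 23.9 under NRF with overlapping values (adjusted p = 0.842). A short antisense gene within the Arntl locus, Gm45355, was at 7.32, 5, 6.87 and 6.38 under DRF and 0.239, 0, 0 and 0.116 under NRF, higher in every DRF liver, and covers 0.439% of the Arntl exons. Arntl covers 11.1% of the Gm45355 exons, and whether its reads were counted for Gm45355 was not tested.

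Among the repressors, Per3 was at 8.09, 7.68, 4.82 and 5.4 under DRF and 60.8, 52.9, 62.7 and 50.1 under NRF (log2 difference -2.96 ± 0.20, adjusted p = 1.11e-15). Per1 was at 5.26, 5.7, 6.7 and 9.8 under DRF and 21.7, 26.7, 22.7 and 19.1 under NRF (log2 difference -1.61 ± 0.27, adjusted p = 1.85e-05). Per2 was at 22.1, 19.8, 18.6 and 25.4 under DRF and 72.6, 49.9, 43.7 and 54.6 under NRF (log2 difference -1.31 ± 0.26, adjusted p = 0.000225). All 3 period genes were thus lower in every DRF liver. Nr1d1 and Nr1d2 encode REV-ERBα and REV-ERBβ, which repress Arntl. Nr1d1 was at 3.79, 3.13, 6.22 and 3.39 under DRF and 18.6, 31, 16.7 and 12.3 under NRF (log2 difference -1.97 ± 0.31, adjusted p = 6.18e-06). For Nr1d2 the levels were 40.8, 43.4, 33.9 and 31.9 under DRF and 168, 198, 274 and 218 under NRF (log2 difference -2.47 ± 0.17, adjusted p = 1.2e-15). Ciart, a further repressor of CLOCK and ARNTL, was at 0.138, 0.139, 0.151 and 0.0957 under DRF and 1.91, 3.52, 1.85 and 3.54 under NRF, 20.6-fold lower in the means (log2 difference -1.68 ± 0.11, adjusted p = 1.13e-15). Cry2 and Bhlhe41 fell less in log2 terms, by 0.91 and 0.57 (adjusted p = 7.43e-09 and 5.12e-05), and Bhlhe41 stayed near or below 1 scaled count in all 8 livers. Cry1 went the other way, at 90.8, 93.3, 92.1 and 113 under DRF and 44.5, 35.1, 53 and 67.9 under NRF, without overlap (log2 difference 0.98 ± 0.20, adjusted p = 0.000274). Bhlhe40 averaged 24.5 ± 6.34 under DRF against 34.6 ± 4.51 under NRF, with overlapping values (adjusted p = 0.166). Opposite-strand genes overlap 19% of the Bhlhe41 exons, 18% of those of Dbp and 8.55% of those of Nr1d1.

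The PAR bZIP activators and their competitor NFIL3, which bind the same D-box, were opposite to each other. Dbp (chr7:45705088-45710203) was at 2.22, 2.37, 3.27 and 2.02 under DRF and 45.7, 59.9, 40 and 43.6 under NRF, 19.1-fold lower under DRF (log2 difference -3.79 ± 0.21, adjusted p = 6.16e-18). Tef was at 22.8, 22.3, 20.9 and 19.2 under DRF and 86.2, 89.5, 127 and 99.5 under NRF (log2 difference -2.17 ± 0.18, adjusted p = 1.33e-12). Hlf was at 24.2, 22.9, 23.4 and 21.9 under DRF and 64.1, 57.7, 38.3 and 73 under NRF (log2 difference -1.26 ± 0.19, adjusted p = 2.1e-06). Nfil3 was at 41.3, 42.1, 53 and 54.8 under DRF and 12.1, 12.8, 11.3 and 13.5 under NRF (log2 difference 1.85 ± 0.16, adjusted p = 7.11e-12). All 4 genes separated the regimens, with the 3 activators lower and Nfil3 higher in the day-fed livers.

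The bases before the start of clock genes were read from RefSeq (GRCm38.p6) for the sites that the clock factors are known to bind. The E-box CACGTG, bound by ARNTL with CLOCK, occurs within 250 bases before the start in 6.86% of 27025 genes, its variant CACGTT in 4.5%, and the RRE TAGGTCA, bound by REV-ERB, in 2.55%, with both strands searched. On the strand shown, the variant and the RRE may therefore read in reverse complement. Of 19 clock and output genes looked up, 16 had an entry, and 8 of these held at least 1 of the 3 sites. Stretches of 200 bases that end at the base before the start are shown for 2 genes that were higher and 4 that were lower under DRF, with each of these sites in capitals. Cry1 (chr10:85185055-85185254, minus strand) has the E-box variant 79 and the E-box 60 bases before its start, and Nfil3 (chr13:52981040-52981239, minus strand) has an RRE that begins 12 bases before it.
Cry1: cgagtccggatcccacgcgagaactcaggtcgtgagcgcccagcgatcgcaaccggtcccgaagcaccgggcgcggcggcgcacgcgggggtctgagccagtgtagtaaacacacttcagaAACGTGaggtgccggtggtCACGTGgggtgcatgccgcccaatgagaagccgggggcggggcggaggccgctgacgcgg
Nfil3: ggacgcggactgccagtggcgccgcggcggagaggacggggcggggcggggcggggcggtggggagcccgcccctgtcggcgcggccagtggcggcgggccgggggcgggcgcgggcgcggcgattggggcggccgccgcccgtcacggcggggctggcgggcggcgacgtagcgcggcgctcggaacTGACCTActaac
Per1 (chr11:69098749-69098948, plus strand) has 1 E-box, at -166, Ciart (chr3:95882229-95882428, minus strand) has 3, at -116, -58 and -44, Bhlhe41 (chr6:145865421-145865620, minus strand) has 1, at -153, and Tef (chr15:81802473-81802672, plus strand) has 1, at -127. Genes with several listed starts are shown at one of them, and the other listed Per1 start held none of the sites.
Per1: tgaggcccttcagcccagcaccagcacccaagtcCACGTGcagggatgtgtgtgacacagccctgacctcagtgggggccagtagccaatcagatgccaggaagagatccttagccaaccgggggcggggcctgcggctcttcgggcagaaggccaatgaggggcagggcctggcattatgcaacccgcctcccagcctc
Ciart: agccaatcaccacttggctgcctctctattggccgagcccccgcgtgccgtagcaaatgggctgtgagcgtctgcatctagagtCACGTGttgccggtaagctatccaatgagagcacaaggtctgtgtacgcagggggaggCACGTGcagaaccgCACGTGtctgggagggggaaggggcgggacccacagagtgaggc
Bhlhe41: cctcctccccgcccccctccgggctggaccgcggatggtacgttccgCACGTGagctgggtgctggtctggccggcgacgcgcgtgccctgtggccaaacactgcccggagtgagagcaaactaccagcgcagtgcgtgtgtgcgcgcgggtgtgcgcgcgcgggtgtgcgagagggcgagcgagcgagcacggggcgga
Tef: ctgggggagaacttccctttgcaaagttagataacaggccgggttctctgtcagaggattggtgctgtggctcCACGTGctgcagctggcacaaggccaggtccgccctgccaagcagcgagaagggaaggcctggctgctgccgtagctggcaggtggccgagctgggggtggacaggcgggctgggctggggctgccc
E-boxes were thus found before genes of both directions. Cry2 (at -166) and Nr1d1 (at -28) held the E-box variant alone. No such letters stood in this window before Arntl, Clock, Npas2, Per3, Nr1d2, Dbp, Hlf and Usp2, which says nothing of sites elsewhere, and Per2, Bhlhe40 and Wee1 had no entry.

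**Figure D1:**
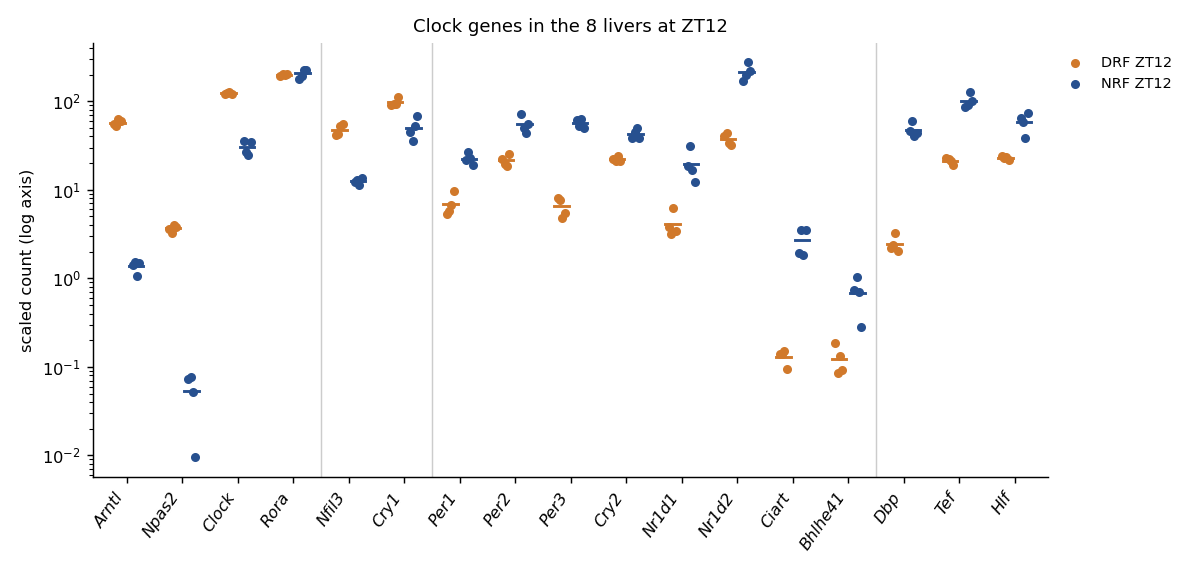
Scaled counts (log axis) of clock genes in the 8 livers at ZT12, one point per liver, DRF in orange and NRF in blue, with a line at each group mean. From left to right stand the activators, Nfil3 and Cry1, the other repressors and the PAR bZIP genes. Arntl, Npas2, Clock, Nfil3 and Cry1 lie higher in the DRF livers, the repressors and Dbp, Tef and Hlf lie lower, and the Rora values overlap.

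Genes known as outputs of the liver clock moved in both directions. Of 20 tested, 6 were higher, 12 were lower and 2 did not pass (median -0.85). Besides Tubb2a, Ddc and Lgalsl, the higher genes included Dtx4, an E3 ubiquitin ligase gene (34.3 ± 5.32 under DRF against 5.96 ± 0.337 under NRF), and Avpr1a, a vasopressin receptor (24.7 ± 5.1 under DRF against 7.63 ± 0.363 under NRF), with log2 differences of 2.33 ± 0.15 and 1.56 ± 0.16 (adjusted p = 2.88e-16 and 5.14e-10). Among the lower genes was Por, the electron donor of microsomal cytochrome P450 enzymes, at 70.5, 81.9, 74.9 and 65.4 under DRF and 239.9, 258, 236 and 236 under NRF (log2 difference -1.72 ± 0.11, adjusted p = 1.99e-16). Wee1, a kinase that holds cells before mitosis, was at 7.49, 6.47, 5.22 and 5.58 under DRF and 25.5, 29.1, 38.9 and 32.8 under NRF (log2 difference -2.17 ± 0.15, adjusted p = 8.88e-15). Nampt, the enzyme of NAD+ salvage, averaged 33.1 ± 4.04 under DRF against 59.4 ± 5.68 under NRF (log2 difference -0.83 ± 0.10, adjusted p = 5.81e-08). Alas1, the first enzyme of haem synthesis, averaged 152 ± 52.8 under DRF against 299 ± 93.1 under NRF with overlapping values (adjusted p = 0.0644).

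Genes of fatty acid synthesis were higher in the livers at the end of the meal. Of 17 tested, 9 were higher, none was lower and 8 did not pass, with a median log2 difference of 0.58. Elovl5, an elongase of polyunsaturated fatty acids, was at 297, 279.7, 233 and 233 under DRF and 106, 89.7, 125 and 106 under NRF (log2 difference 1.28 ± 0.15, adjusted p = 1.09e-08). Acly, which makes cytosolic acetyl-CoA from citrate, was at 1111, 684, 829 and 675 under DRF and 258, 243, 478 and 394 under NRF (log2 difference 1.29 ± 0.28, adjusted p = 0.000688). Pnpla3, a lipid droplet protein gene, was at 19.1, 10.6, 14.7 and 15.7 under DRF and 1.34, 2.06, 4.68 and 3.08 under NRF (log2 difference 2.13 ± 0.43, adjusted p = 0.000262). None of these 3 genes overlapped between regimens.

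Further genes of the pathway passed the test. Me1, malic enzyme, a source of NADPH, averaged 2091 ± 386 under DRF against 1079 ± 449 under NRF (log2 difference 1.03 ± 0.27, adjusted p = 0.00521). Acss2, acetyl-CoA synthetase, averaged 367 ± 60.3 under DRF against 172 ± 70.7 under NRF (log2 difference 1.17 ± 0.31, adjusted p = 0.00657). Fasn, fatty acid synthase, was at 665, 399, 462 and 395 under DRF and 179.7, 133, 378 and 257 under NRF (log2 difference 1.09 ± 0.38, adjusted p = 0.0415). This call was lost without DRF replicates 1, 2, 3 or 4 or NRF replicates 1 or 2. Acacb, an acetyl-CoA carboxylase, averaged 342 ± 45.6 under DRF against 206 ± 82.2 under NRF (log2 difference 0.81 ± 0.25, adjusted p = 0.0204), and its call was lost without DRF replicate 3 or NRF replicates 1 or 2. The regulators of the pathway did not pass. Srebf1, which encodes SREBP1, averaged 224 ± 10.3 under DRF against 197 ± 30.4 under NRF (adjusted p = 0.632). Mlxipl, which encodes the glucose sensor ChREBP, averaged 76.5 ± 7.11 under DRF against 68.3 ± 6.82 under NRF (adjusted p = 0.59), and Thrsp 241 ± 46.6 under DRF against 202 ± 85.3 under NRF (adjusted p = 0.735). Within NRF, replicates 3 and 4 were above replicates 1 and 2 for Acly, Fasn, Me1, Acss2, Acacb and Thrsp. The count of 9 fell to 5 without NRF replicate 1 and to 3 when the ZT12 libraries were fitted alone.

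Cholesterol synthesis had 8 of 25 genes higher, none lower and 17 that did not pass (median 0.35). Hmgcs1, which makes HMG-CoA in the cytosol, was at 492, 458, 387 and 356 under DRF and 271, 190.1, 246 and 166 under NRF (log2 difference 0.97 ± 0.26, adjusted p = 0.00663). Acat2, the thiolase that precedes it, was at 213, 182, 153 and 183 under DRF and 86.4, 80.1, 143 and 94.7 under NRF (log2 difference 0.88 ± 0.18, adjusted p = 0.000417). Sc5d, one of the last enzymes of the pathway, averaged 436 ± 40.1 under DRF against 262 ± 22.7 under NRF (log2 difference 0.74 ± 0.15, adjusted p = 0.000439). None of these overlapped between regimens. Pmvk and Mvd, which act on mevalonate products, had log2 differences of 0.79 ± 0.21 and 0.94 ± 0.27 (adjusted p = 0.00713 and 0.0117). Insig1, the sterol-responsive ER anchor, differed by 0.57 ± 0.19 (adjusted p = 0.0272, lost without DRF replicates 1, 2 or 3 or NRF replicates 1 or 2). Srebf2, which encodes the regulator SREBP2, averaged 34 ± 2.18 under DRF against 29.1 ± 3.7 under NRF (adjusted p = 0.302). The count of 8 was 5 without DRF replicate 1, DRF replicate 3 or NRF replicate 2.

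Triglyceride genes split by step. Of 19 tested, 4 were higher and 7 lower (median -0.11). Agpat2, which adds the second acyl chain to glycerol, averaged 194 ± 17.3 under DRF against 93.7 ± 8.49 under NRF (log2 difference 1.04 ± 0.20, adjusted p = 0.000168). Gpam, which adds the first, averaged 693 ± 297 under DRF against 316 ± 89.9 under NRF (log2 difference 1.08 ± 0.34, adjusted p = 0.0216), a call lost without DRF replicates 1 or 2 or NRF replicates 1 or 2. The phosphatidate phosphatase genes Lpin1 and Lpin2 were lower in every DRF liver. Lpin1 was at 57, 60.4, 47.7 and 64.7 under DRF and 209.5, 173, 208 and 241 under NRF (log2 difference -1.83 ± 0.30, adjusted p = 1.06e-05). Lpin2 was at 36.1, 38.9, 29.5 and 29.3 under DRF and 71.6, 104, 124 and 109 under NRF (log2 difference -1.56 ± 0.12, adjusted p = 3.74e-14). Pnpla2, the triglyceride lipase ATGL, averaged 7.89 ± 0.756 under DRF against 17.2 ± 4.08 under NRF (log2 difference -1.01 ± 0.13, adjusted p = 7.13e-08). Dgat2, which makes triglyceride from diacylglycerol, averaged 520.5 ± 31.2 under DRF against 831 ± 114 under NRF (log2 difference -0.67 ± 0.11, adjusted p = 8.22e-06). The higher count of 4 was 2 without DRF replicate 1, DRF replicate 2 or NRF replicate 2, and 1 with the ZT12 libraries alone.

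Glycogen genes held some of the clearest differences of fuel metabolism, with 3 of 12 higher and 3 lower (median -0.07). Ppp1r3c (chr19:36731731-36736653), a subunit that directs protein phosphatase 1 to glycogen, was at 41.8, 37.4, 43 and 43.9 under DRF and 3.92, 3.02, 4.7 and 3.44 under NRF (log2 difference 3.17 ± 0.19, adjusted p = 2.59e-17). Its paralog Ppp1r3b, the main liver subunit, was at 168, 145, 146 and 129 under DRF and 59.9, 23.8, 39.9 and 52.6 under NRF (log2 difference 1.79 ± 0.24, adjusted p = 2.11e-07). Gys2, the liver glycogen synthase, was at 349, 321, 274 and 253 under DRF and 792, 1170.4, 1223 and 1093 under NRF (log2 difference -1.83 ± 0.11, adjusted p = 2.15e-16). Thus both targeting subunits were higher and the synthase lower, and none of the 3 overlapped. Ppp1r3g, a further subunit, was at 0.0186, 0.149, 0.00236 and 0.0176 under DRF and 0.0212, 14.2, 6.89 and 4.08 under NRF (log2 difference -2.26 ± 0.35, adjusted p = 3.85e-06). NRF replicate 1 lay with the DRF livers, and this call was lost when the ZT12 libraries were fitted alone, which left 1 glycogen gene lower. Pygl, the liver glycogen phosphorylase, differed by 0.37 ± 0.12 (adjusted p = 0.0283, lost without DRF replicates 1 or 3 or NRF replicates 1 or 2). Gbe1, the branching enzyme, averaged 1383 ± 68 under DRF against 1166 ± 250.1 under NRF (adjusted p = 0.227).

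Several regulators of the fasting programme were lower in the fed livers. In the list of PPARα, fatty acid oxidation and ketogenesis, 5 of 30 genes were lower, 5 higher and 20 did not pass (median 0.00). Ppara itself was at 162, 164, 154 and 150.4 under DRF and 278, 321, 428 and 336 under NRF (log2 difference -1.09 ± 0.14, adjusted p = 1.45e-07). Cpt1a, which admits long-chain fatty acids into mitochondria, was at 114, 121, 96.4 and 89.9 under DRF and 229, 256, 235 and 242 under NRF (log2 difference -1.19 ± 0.14, adjusted p = 6.59e-09). Creb3l3, an ER-bound partner of PPARα, averaged 103 ± 8.26 under DRF against 181 ± 13.4 under NRF (log2 difference -0.81 ± 0.13, adjusted p = 1.01e-05). Angptl4, an inhibitor of lipoprotein lipase, averaged 3.63 ± 0.984 under DRF against 13.9 ± 5.39 under NRF (log2 difference -1.66 ± 0.32, adjusted p = 0.000184). Ppargc1a, the coactivator PGC-1α, averaged 36.7 ± 6.45 under DRF against 54.4 ± 8.33 under NRF (log2 difference -0.56 ± 0.15, adjusted p = 0.00752), a call lost without DRF replicate 4 or NRF replicate 2. Pdk4, which blocks pyruvate dehydrogenase, was higher, at 23.4, 17.4, 22.6 and 9.65 under DRF and 1.72, 6.49, 4.85 and 5.35 under NRF (log2 difference 1.8 ± 0.33, adjusted p = 6.21e-05). The other higher genes were the peroxisomal enzymes Ehhadh and Acaa1b (0.65 ± 0.16 and 0.63 ± 0.18), the fatty acid receptor Cd36 (0.56 ± 0.18) and the lipid droplet gene Plin5 (0.71 ± 0.25). The Plin5 call was lost in all 8 leave-one-out fits, that of Cd36 without DRF replicates 1 or 2 or NRF replicates 1, 2 or 3, and the count of 5 was 2 without DRF replicate 2 and 3 without DRF replicate 1, NRF replicate 2 or NRF replicate 3. Fgf21, a fasting hormone, averaged 0.057 ± 0.0246 under DRF against 0.0462 ± 0.014 under NRF with overlapping values (adjusted p = 0.956).

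Gluconeogenesis differed at 1 enzyme. Pck1, which turns oxaloacetate into phosphoenolpyruvate, was at 196, 325, 242 and 287 under DRF and 740.3, 1245, 1121 and 1036 under NRF, every NRF liver above every DRF liver (log2 difference -1.98 ± 0.36, adjusted p = 6.35e-05). It was the only one of 20 gluconeogenic and amino acid breakdown genes that was lower, and 18 did not pass, where 15.2% of all genes were called. Hal, histidine ammonia lyase, was higher (362 ± 44.9 under DRF against 256 ± 56.3 under NRF, adjusted p = 0.0161, lost without NRF replicate 1). G6pc, glucose-6-phosphatase, was at 99.1, 97.9, 189 and 184 under DRF and 53.5, 97.8, 151 and 172 under NRF (adjusted p = 0.624), and Tat, tyrosine aminotransferase, averaged 684 ± 132 under DRF against 836 ± 279 under NRF (adjusted p = 0.614).

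**Figure D2:**
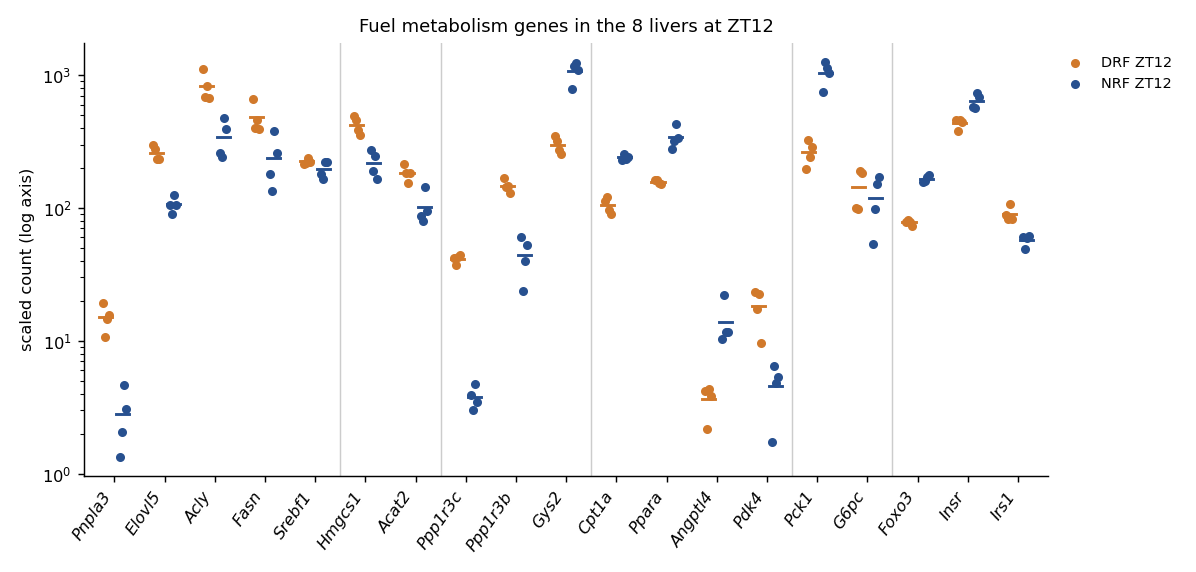
Scaled counts (log axis) of genes of fuel metabolism in the 8 livers at ZT12, one point per liver, DRF in orange and NRF in blue, with a line at each group mean. Between the grey lines stand, from left to right, lipogenesis, sterol synthesis, glycogen, fatty acid oxidation, gluconeogenesis and insulin signalling. Pnpla3, Ppp1r3c, Ppp1r3b and Pdk4 lie higher and Gys2, Cpt1a, Ppara and Pck1 lower in the DRF livers without overlap, whereas Srebf1 and G6pc overlap.

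Insulin receptor and FOXO genes were mostly lower after the meal, with 7 of 13 lower, 1 higher and 5 that did not pass (median -0.59). Foxo3, a transcription factor held back by insulin, was at 78.6, 80.9, 78.2 and 73.6 under DRF and 156, 159, 169 and 178 under NRF (log2 difference -1.08 ± 0.10, adjusted p = 5.74e-11). Foxo1 averaged 103 ± 4.7 under DRF against 157 ± 17.1 under NRF (log2 difference -0.59 ± 0.11, adjusted p = 9.85e-05). The insulin receptor gene Insr averaged 433 ± 38.1 under DRF against 641 ± 83.5 under NRF (log2 difference -0.56 ± 0.08, adjusted p = 1.67e-06). All 3 separated the regimens. Trib3 and Trib1, pseudokinases of the same pathway, fell by 1.43 and 0.66 on the log2 scale (adjusted p = 9.44e-05 and 0.0131). The Trib1 call was lost in 4 of 18 alternative fits. The insulin receptor adapter genes were opposite. Irs1 was higher, at 87.9, 82.2, 107 and 81.8 under DRF and 60.2, 48.7, 59.6 and 61.2 under NRF (log2 difference 0.63 ± 0.12, adjusted p = 0.000199). Irs2 was lower, at 23.1 ± 11.3 under DRF against 40 ± 8.68 under NRF (log2 difference -0.86 ± 0.28, adjusted p = 0.0299). The Irs2 values overlapped, and its call was lost without DRF replicates 1 or 2 or NRF replicates 2, 3 or 4. Opposite-strand genes cover 30.9% of the Irs1 exons. Igfbp1, an insulin-repressed binding protein, averaged 12.3 ± 7.21 under DRF against 39.9 ± 23.7 under NRF (adjusted p = 0.119). The lower count of 7 was 4 without DRF replicate 1, with the values as deposited, and with the ZT12 libraries alone.

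Bile and sterol export genes were lower in part, with 6 of 14 lower and 2 higher (median -0.32). Abcg5 and Abcg8, which together form the sterol exporter, averaged 135 ± 22.3 under DRF against 275 ± 50.3 under NRF and 42.1 ± 7.93 under DRF against 93.8 ± 21.7 under NRF. They had log2 differences of -1.02 ± 0.14 and -1.13 ± 0.18 (adjusted p = 4.69e-07 and 7.1e-06). Abcc2, the canalicular exporter of conjugates, averaged 465 ± 29.5 under DRF against 712 ± 108 under NRF (log2 difference -0.60 ± 0.08, adjusted p = 4.78e-08). Nr1h4, the bile acid receptor FXR, averaged 539.7 ± 59.3 under DRF against 764 ± 30.8 under NRF (log2 difference -0.51 ± 0.10, adjusted p = 0.000121). The bile salt export pump Abcb11 was higher (698 ± 53.7 under DRF against 483 ± 88.2 under NRF, adjusted p = 5.05e-05), as was Baat, which conjugates bile acids (416 ± 17.6 under DRF against 320.2 ± 50.5 under NRF, adjusted p = 0.00207). Cyp7a1, the rate-limiting enzyme of bile acid synthesis, was at 179.9, 133, 153 and 129 under DRF and 329, 159, 139 and 342 under NRF (adjusted p = 0.341). With the values as deposited, 2 of the 14 genes were lower, and with the ZT12 libraries alone none was higher.

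Genes of protein folding and degradation were higher after the meal. Of 22 ER chaperone and unfolded protein response genes, 12 were higher, 1 lower and 9 did not pass (median 0.36). Sdf2l1, a component of the ER chaperone complex, was at 4.21, 7.34, 9.72 and 15.1 under DRF and 3.9, 3.47, 2.15 and 3.72 under NRF (log2 difference 1.13 ± 0.22, adjusted p = 0.000203). Calr, calreticulin, averaged 199.5 ± 36.2 under DRF against 125 ± 12 under NRF (log2 difference 0.65 ± 0.13, adjusted p = 0.000329). Edem1, which sends misfolded glycoproteins to degradation, averaged 302 ± 9.4 under DRF against 204 ± 47.5 under NRF (log2 difference 0.59 ± 0.10, adjusted p = 2.57e-05). The chaperone gene Hspa13 averaged 36.4 ± 7.47 under DRF against 20.8 ± 5.96 under NRF (log2 difference 0.80 ± 0.14, adjusted p = 5.49e-05). Manf and Hyou1, both induced in ER stress, differed by 0.72 ± 0.23 and 0.74 ± 0.20, with overlapping values (adjusted p = 0.0254 and 0.00911). Their calls were lost in 5 and 3 of 18 alternative fits. Hspa5, the central ER chaperone BiP, was at 52, 68.7, 74.1 and 113 under DRF and 97.5, 71.9, 45.4 and 59.8 under NRF, with wide and overlapping ranges (adjusted p = 0.77). Herpud1, an ER-associated degradation gene, was the one lower gene, at 38.3, 45.7, 56.2 and 105 under DRF and 113, 118, 128 and 123 under NRF (log2 difference -1.07 ± 0.20, adjusted p = 9.76e-05). DRF replicate 4 had the highest Herpud1, Sdf2l1, Hspa13 and Hspa5 values of the DRF group. The count of 12 was 6 without DRF replicate 3 or NRF replicate 3, 5 without DRF replicate 4 and 1 with the ZT12 libraries alone.

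Proteasome subunits were higher by small amounts, 16 of 32 higher, none lower and 16 that did not pass (median 0.23). Psmd14, the deubiquitinase of the lid, was at 12.1, 12.7, 11.4 and 12.8 under DRF and 6.71, 6.47, 5.57 and 6.71 under NRF (log2 difference 0.85 ± 0.08, adjusted p = 1.63e-10). Psmd11 was at 112, 126, 119 and 123 under DRF and 71.4, 63.9, 69.2 and 70.6 under NRF (log2 difference 0.79 ± 0.11, adjusted p = 1.06e-06). Psmd1 was at 134, 139, 128 and 144 under DRF and 95.2, 92, 94.2 and 91.2 under NRF (log2 difference 0.54 ± 0.08, adjusted p = 5.57e-07). The regimens did not overlap for any of these 3 lid and base subunits. The ATPase genes Psmc4 and Psmc2 and the core subunit gene Psma2 differed by 0.47 ± 0.09, 0.37 ± 0.08 and 0.31 ± 0.08 (adjusted p = 0.000263, 0.00108 and 0.00239). In leave-one-out fits 11 to 17 subunits were higher, and 9 with the ZT12 libraries alone. Of 79 cytosolic ribosomal protein genes 1 was higher and 78 did not pass (median 0.00). No ribosomal protein gene was higher without DRF replicate 4, NRF replicate 1 or NRF replicate 3, 2 were higher without NRF replicate 2, and 4 were lower without NRF replicate 3 and 1 without NRF replicate 4.

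Among 19 targets of the heat shock factor HSF1, 4 were higher and none lower (median 0.35). They were Fkbp4 (90.4 ± 7.22 under DRF against 58.5 ± 7.75 under NRF) and Hspa4l (20.6 ± 2.47 under DRF against 13.3 ± 1.48 under NRF), both chaperone genes without overlap between regimens (adjusted p = 6.94e-05 and 0.000199), and Bag3 and Cacybp with overlap (adjusted p = 0.0201 and 0.0254). The calls of the latter pair were lost without DRF replicate 4 or NRF replicates 2 or 3 for Bag3 and without DRF replicates 1 or 4 or NRF replicates 2 or 3 for Cacybp. With the values as deposited, 7 of the 19 were higher, and 2 without NRF replicate 3 or with the ZT12 libraries alone. The cold-inducible genes Cirbp and Rbm3 averaged 1.31 ± 0.342 under DRF against 2.71 ± 0.955 under NRF and 3.1 ± 0.401 under DRF against 4.62 ± 0.873 under NRF (adjusted p = 0.0131 and 0.0238), and neither call held without DRF replicate 4 or NRF replicate 2.

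Autophagy and nutrient-sensing genes had 5 of 27 lower and 1 higher (median -0.07). Ulk1, the kinase that starts autophagy, was at 34.8, 45.4, 30.7 and 32.1 under DRF and 73.3, 73.7, 75.7 and 53.2 under NRF (log2 difference -0.93 ± 0.13, adjusted p = 6.59e-07). Fnip1 and Fnip2, partners of folliculin in lysosomal nutrient sensing, averaged 90 ± 8.4 under DRF against 167 ± 26.3 under NRF and 107 ± 18.5 under DRF against 224 ± 61.1 under NRF. These gave log2 differences of -0.88 ± 0.10 and -1.04 ± 0.14 (adjusted p = 9.98e-09 and 2.11e-07). Atg14, a subunit of the autophagy lipid kinase, differed by -0.74 ± 0.10 and the mitophagy receptor Bnip3 by -0.94 ± 0.25 (adjusted p = 1.23e-07 and 0.00767). Sqstm1, the cargo receptor p62, was higher, at 174 ± 14.8 under DRF against 133 ± 9.56 under NRF (adjusted p = 0.000339). All 6 genes separated the regimens. Of the 27 genes of the list, 1 was higher and 7 were lower without overlap, where 16.2% of all genes did not overlap. The higher count was 2 without DRF replicate 1 or NRF replicate 4.

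Genes that respond to glucocorticoids were lower in the day-fed livers for 7 of 16, with 1 higher and 8 that did not pass (median -0.43). Lpin1 and Per1 are among them and are also clock or lipid genes. Mt1, a metallothionein gene, was at 5.85, 3.81, 4.83 and 7.88 under DRF and 60.9, 50.8, 9.57 and 8.96 under NRF (log2 difference -1.91 ± 0.44, adjusted p = 0.0016). NRF replicates 1 and 2 stood far above NRF replicates 3 and 4, which were near the DRF livers, and the call was lost with the ZT12 libraries alone. Fkbp5, a classic glucocorticoid target, was at 31, 40.7, 14.8 and 51.1 under DRF and 97.3, 67.9, 86.8 and 89.2 under NRF (adjusted p = 0.0219), a call lost without DRF replicate 3 or NRF replicate 1. Cebpd differed by -0.67 ± 0.11 and Klf9 by -0.71 ± 0.15 (adjusted p = 1.73e-05 and 0.000453). Ddit4, an inhibitor of mTORC1, was higher, at 2.95, 2.36, 5.95 and 3.3 under DRF and 0.648, 1.17, 0.999 and 1.76 under NRF (log2 difference 1.08 ± 0.21, adjusted p = 0.000204). Tsc22d3, the glucocorticoid-induced gene GILZ, averaged 276 ± 66.5 under DRF against 222 ± 51.8 under NRF with overlap (adjusted p = 0.451). With the ZT12 libraries alone, 4 of the 16 were lower.

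In the integrated stress response list, 4 of 19 were lower and 3 higher (median 0.15). Cebpb was at 9.51, 12.1, 12 and 14.3 under DRF and 29.7, 56, 30.9 and 31.8 under NRF (log2 difference -1.52 ± 0.18, adjusted p = 2.6e-08). Atf5 averaged 76.1 ± 6.75 under DRF against 38 ± 16.2 under NRF (log2 difference 1.06 ± 0.21, adjusted p = 0.000159). Of 14 immediate early genes, 3 were lower and none higher (median -0.23), with Junb at 1.85 ± 0.885 under DRF against 8.33 ± 4.75 under NRF (adjusted p = 0.0023). Of 20 acute phase genes, 3 were lower and 1 higher (median -0.02), where 15.2% of all genes were called. The higher count was 0 without DRF replicate 3, DRF replicate 4 or NRF replicate 2, and 3 without NRF replicate 4. Il6ra, the interleukin 6 receptor, was at 17.4, 18.3, 18.7 and 17.6 under DRF and 65.2, 47.7, 47.2 and 54.5 under NRF (log2 difference -1.51 ± 0.19, adjusted p = 6.27e-08). Il1rn, the interleukin 1 receptor antagonist, averaged 0.713 ± 0.144 under DRF against 1.89 ± 0.488 under NRF (log2 difference -0.74 ± 0.13, adjusted p = 4.68e-05). Neither gene overlapped between regimens.

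Drug metabolism genes were 7 of 30 higher and 5 lower (median 0.24). The xenobiotic receptor genes Nr1i2 (PXR) and Nr1i3 (CAR) were lower, at 186 ± 28.5 under DRF against 289.9 ± 37.7 under NRF and 30.7 ± 1.51 under DRF against 49.7 ± 4.47 under NRF (adjusted p = 2.11e-05 and 0.000194). Opposite-strand genes cover 74.9% of the Nr1i3 exons. Cyp2b10, a known CAR target, was one of the largest increases, and Cyp2c55 averaged 24.7 ± 2.72 under DRF against 11 ± 5.94 under NRF (log2 difference 1.25 ± 0.27, adjusted p = 0.000643). Cyp2a5 was lower, at 556, 503, 498 and 479 under DRF and 868, 1652, 1047 and 1487 under NRF (log2 difference -1.26 ± 0.26, adjusted p = 0.000376). Cyp3a11, a known PXR target, averaged 3019 ± 415 under DRF against 2079.9 ± 167 under NRF (log2 difference 0.53 ± 0.13, adjusted p = 0.00228). The glutathione transferase genes Gsta1 and Gsta2 differed by 2.05 ± 0.62 and 1.22 ± 0.36 (adjusted p = 0.0168 and 0.0136), with overlapping values, and neither call held without NRF replicate 1. Several of these genes have near-identical paralogs, so their counts are uncertain. The higher count of 7 was 4 without NRF replicate 1 and with the ZT12 libraries alone.

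Cell cycle genes were 5 of 20 higher and 2 lower (median -0.01). Cdkn1a, the inhibitor p21, was at 4.38, 6.3, 4.44 and 4.93 under DRF and 0.359, 0.328, 0.351 and 0.3 under NRF, 15-fold higher in the means (log2 difference 2.16 ± 0.24, adjusted p = 4.34e-09). Ccne1, cyclin E1, was at 0.212, 0.467, 0.192 and 0.402 under DRF and 1.14, 1.3, 1.73 and 1.63 under NRF (log2 difference -0.89 ± 0.09, adjusted p = 8.37e-10). Both separated the regimens at low levels. The replication licensing genes Mcm5 and Mcm6 averaged 6.1 ± 2.52 under DRF against 1.94 ± 0.725 under NRF and 16.8 ± 6.36 under DRF against 7.03 ± 1.5 under NRF (adjusted p = 0.00201 and 0.00825), with DRF replicate 3 inside the NRF range. Neither passed with the ZT12 libraries alone, where 1 cell cycle gene was higher. In ribosome biogenesis 5 of 40 were higher and 2 lower (median 0.08), near the 15.2% called over all genes. The counts of this list ran from 0 to 9 higher and from 0 to 4 lower over the alternatives. Wdr75 averaged 14.8 ± 2.16 under DRF against 10.3 ± 1.69 under NRF and Npm1 23 ± 1.62 under DRF against 35 ± 9.99 under NRF (adjusted p = 0.00117 and 0.00851). Their calls were lost in 1 and 3 of 18 alternative fits. In the urea cycle 2 of 9 were higher and 1 lower (median 0.12), and the ornithine carrier gene Slc25a15 was among the higher. It was at 330.4, 322, 336 and 307 under DRF and 166, 162, 203 and 239 under NRF (log2 difference 0.77 ± 0.12, adjusted p = 6.92e-06). The higher count of the urea cycle was 1 without DRF replicate 2, 3 or 4 or NRF replicate 1 or 2, and none was lower without DRF replicate 4, with the values as deposited or with the ZT12 libraries alone. In the growth hormone axis 2 of 16 were higher and 3 lower (median -0.35). Stat5a and Stat5b, which carry the growth hormone signal, differed by 0.44 ± 0.11 and 0.42 ± 0.11 (adjusted p = 0.0025 and 0.00444, both lost with the ZT12 libraries alone), and Igf1 averaged 1113 ± 118 under DRF against 1105 ± 95.8 under NRF (adjusted p = 0.986).

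**Figure D3:**
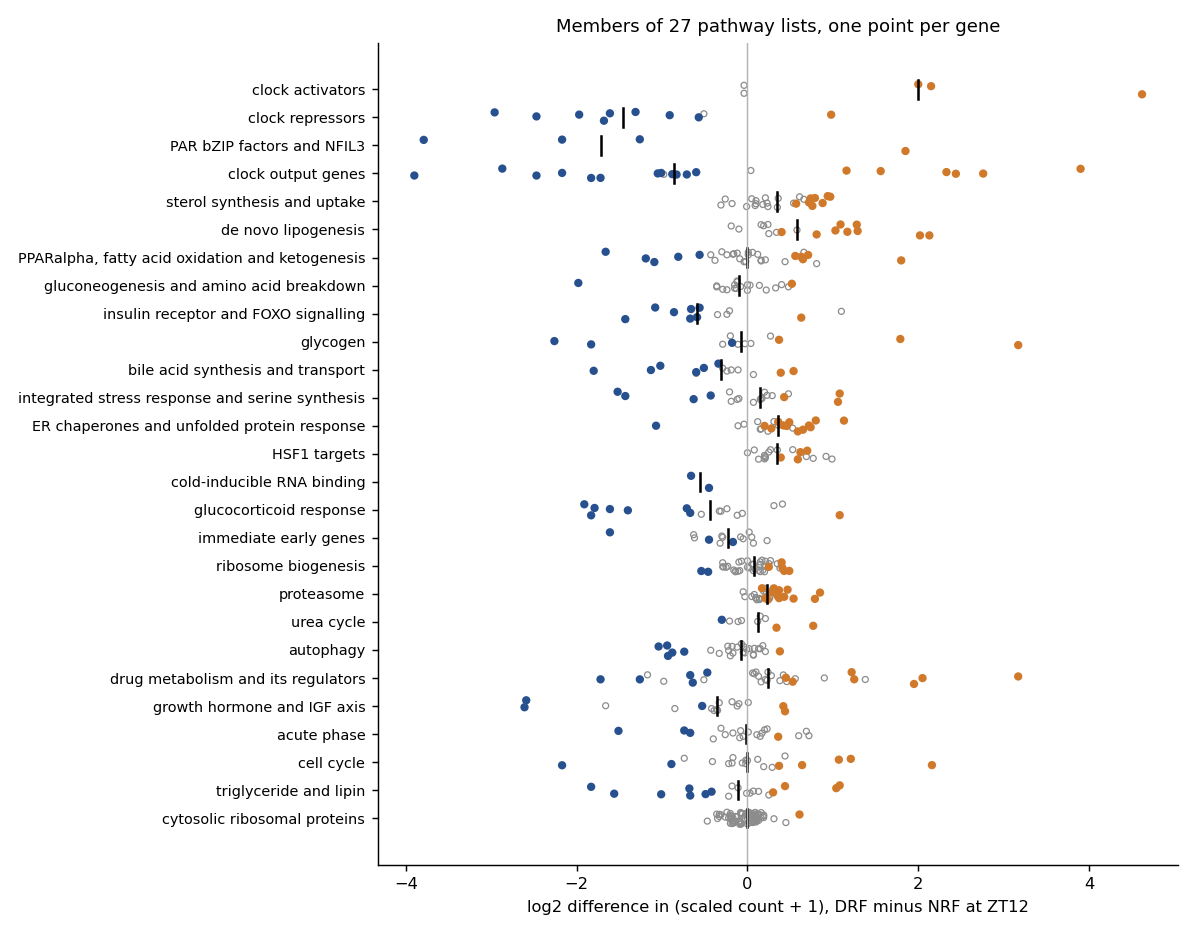
Log2 differences (DRF minus NRF at ZT12, in scaled count + 1) of every tested member of the 27 pathway lists, one point per gene. Filled points passed an adjusted p of 0.05, orange if higher and blue if lower under DRF, open grey points did not, and the black bar is the median of the list. Lipogenesis, sterol synthesis and the proteasome have filled points to the right only, clock repressors lie to the left except Cry1 (0.98), and the 79 ribosomal protein genes sit around 0.

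The same contrast was then read at ZT0, when the NRF mice were at the end of their meal and the DRF mice at the end of their fast. Day and night feeding differed in 16.1% of genes there. The difference at ZT12 departed from that at ZT0 in 5756 genes, or 22.8%. Of the 342 genes that differed at least 2-fold at ZT12, 260 were called in the opposite direction at ZT0, 10 in the same direction and 72 were not called, and 317 passed the interaction test. Of all 3846 genes called at ZT12, 1916 were opposite at ZT0, 48 the same and 1882 not called, and the interaction passed in 3244. The interaction holds the ZT12 difference by which these genes were chosen, so a pass alone does not show a reversal. Of genes not called at ZT0, 588 of 839 higher and 740 of 1043 lower at ZT12 passed it.

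Clock genes turned over between the times. Arntl had a log2 difference of -3.28 at ZT0 (adjusted p = 1.18e-17) and Dbp of 4.88 (adjusted p = 1.08e-21), so that their interactions were 7.90 ± 0.27 and -8.67 ± 0.30. Of the 24 genes chosen for the largest ZT12 differences, which enter the interaction, 22 passed the interaction test. Of 10 fatty acid oxidation genes called at ZT12, 5 were called in the opposite direction at ZT0 and 1 in the same, and among 9 lipogenesis genes 7 were opposite and none the same. Over all 3846 genes called at ZT12, 1916 were opposite and 48 the same. The opposite count of the fatty acid oxidation genes was thus near that share. Cpt1a was at 1.59 at ZT0 (adjusted p = 2.74e-12) and Pck1 at 2.57 (adjusted p = 5.49e-07). Cyp2b10 did not pass at ZT0, at -0.58 (adjusted p = 0.362), and its interaction did (adjusted p = 3.65e-07). Bhlhe40, not called at ZT12, was higher under DRF at ZT0 by 1.4 (adjusted p = 2.11e-05), as was Alas1 by 2.31 (adjusted p = 6.08e-06). Mlxipl was lower at ZT0, at -0.82 (adjusted p = 0.000136), with an interaction at adjusted p = 0.000704. Sdf2l1 and Calr, higher at ZT12, were lower at ZT0, at -2.04 and -1.10 (adjusted p = 1.9e-09 and 2.4e-08).

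**Figure D4:**
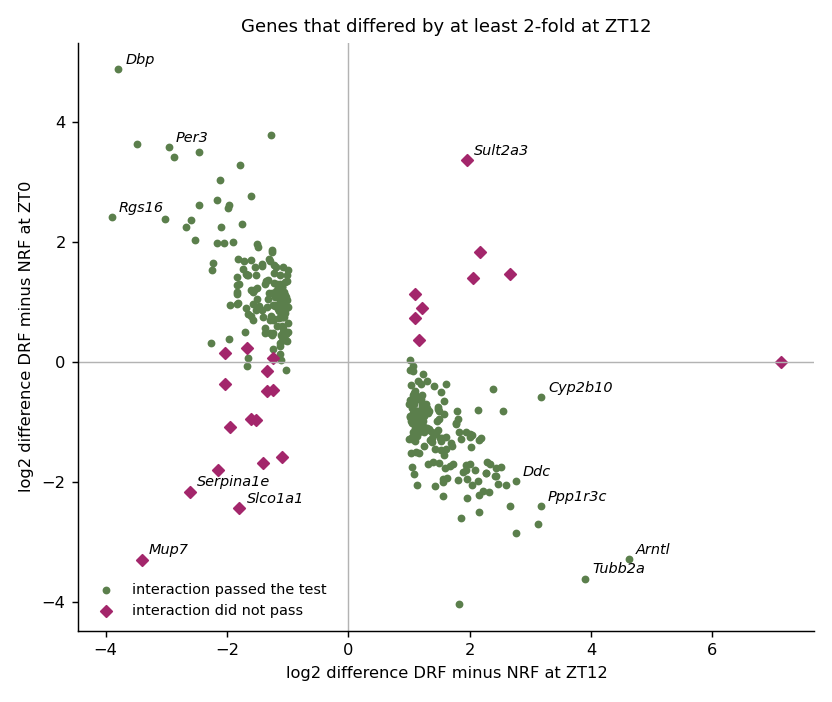
Log2 difference DRF minus NRF at ZT12 (x axis) against that at ZT0 (y axis) for the 342 genes that differed at least 2-fold at ZT12, one point per gene. Green points passed the interaction test and pink diamonds (25 genes) did not. Points crowd the upper left and lower right, with Arntl, Tubb2a, Dbp and Per3 at the ends, while Mup7, Serpina1e and Slco1a1 lie in the lower left and Sult2a3 in the upper right.

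A small set of genes kept its direction. Besides Mup7 and Serpina1e, which the size of their difference had already named, the genes of this paragraph were chosen after their values were seen. Serpina1e (chr12:103946931-103958975), one of a cluster of alpha-1-antitrypsin genes, was at 185, 178, 242 and 196 under DRF and 2385, 1577, 428 and 1370.5 under NRF (log2 difference -2.61 ± 0.49, adjusted p = 0.00011). NRF replicate 3 was well below the other NRF livers and still above every DRF liver. At ZT0 its difference was -2.16 (adjusted p = 0.00113), and the interaction did not pass (adjusted p = 0.742). Slco1a1, an organic anion uptake carrier, was at 26.4, 15, 39.2 and 19.4 under DRF and 147, 51.3, 71.7 and 93.8 under NRF at ZT12 (log2 difference -1.8 ± 0.52, adjusted p = 0.013) and differed by -2.43 at ZT0 (adjusted p = 0.000569). Its ZT12 call was lost without DRF replicate 2 or NRF replicate 1. Cyp3a44, a female-biased cytochrome P450, was at 111, 48.6, 109.5 and 179 under DRF and 343, 399, 628 and 494 under NRF (log2 difference -2.15 ± 0.48, adjusted p = 0.001) and differed by -1.79 at ZT0 (adjusted p = 0.00588). Selenbp2 averaged 14.2 ± 1.86 under DRF against 39.6 ± 9.7 under NRF (log2 difference -1.4 ± 0.35, adjusted p = 0.00339) and differed by -1.68 at ZT0 (adjusted p = 0.000365). Sult2a3, a hydroxysteroid sulfotransferase, was higher under DRF at both times, by 1.95 ± 0.67 at ZT12 (adjusted p = 0.0411, lost without DRF replicates 1, 2 or 4 or NRF replicates 1 or 2) and 3.37 at ZT0 (adjusted p = 0.000214). The beta-globin gene Hbb-bt was also higher at both, by 1.09 ± 0.34 and 1.14 (adjusted p = 0.0219 and 0.0145), with overlapping values at ZT12 and a ZT12 call lost without DRF replicates 1, 2 or 4 or NRF replicate 1, beside the erythroid markers given at the start.

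Mup7 belongs to the major urinary proteins, pheromone carriers that are made in far larger amounts by males, and all mice here were female. It was at 7.62, 1.08, 1.1 and 0.402 under DRF and 28.3, 28.9, 42.5 and 16.9 under NRF (log2 difference -3.41 ± 0.79, adjusted p = 0.00151), and at ZT0 its difference was -3.29 (adjusted p = 0.00196). DRF replicate 1 stood above the other DRF livers. Of 20 Mup genes tested, 6 were lower, none higher and 18 had a difference below 0 at ZT12 (median -0.98), and 3 were lower, none higher and 19 below 0 at ZT0 (median -0.78). One of the 20, Mup20, passed the interaction test (adjusted p = 0.0355). Mup19 was at 10.6, 32.3, 50 and 39 under DRF and 135, 139, 99.2 and 91.9 under NRF (log2 difference -1.96 ± 0.36, adjusted p = 8.21e-05). Mup genes are near-identical copies that share reads, and single genes varied widely within a group, as Mup12 did, at 8902, 9363, 958 and 7023 under DRF and 1453, 7360.3, 21057 and 1651 under NRF, so values of single members are uncertain.

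**Figure D5:**
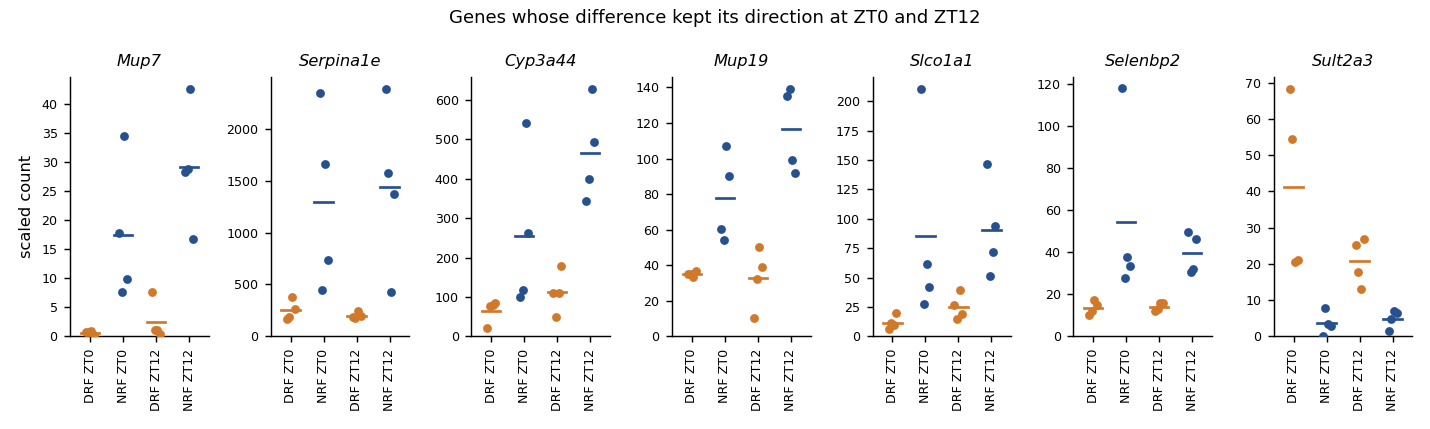
Scaled counts of 7 genes whose regimen difference had the same sign at ZT0 and ZT12, one point per liver with a line at the group mean, DRF in orange and NRF in blue. Mup7, Serpina1e, Cyp3a44, Mup19, Slco1a1 and Selenbp2 have lower DRF means at both times and Sult2a3 has higher ones. On this linear axis the NRF points spread more widely than the DRF points in the genes that are lower under DRF. On a log scale this does not hold for all, as for Mup7 at ZT12 (0.402 to 7.62 under DRF, 16.9 to 42.5 under NRF).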

How the data were processed

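Liver RNA was sequenced after ribosomal RNA depletion and stranded dUTP library preparation, and read counts per gene came from featureCounts 1.5.0-p3 on GRCm38.p6 (mm10), after base calling with CASAVA 1.8, per the labels. The molecule field of the labels reads polyA RNA, whereas their protocol describes ribosomal RNA depletion, and this conflict was not resolved. The aligner and the strand setting are not given in the sources used here. The gene table that the authors deposited calls its values TPM, but each value times exon length followed the logarithm of 1 plus a multiple of a whole number, so they were treated as a score deposited by the authors and not as linear TPM. Undoing the logarithm gave counts within 0.05 of a whole number for 92.0% to 97.9% of held-out values up to 200000 counts and 45.1% above, where chance gives 10%. These recovered counts (361 to 661 M a library at ZT12) are called scaled counts once multiplied by the factor of their library. They were not treated as read counts, so no count model was run. Of 25415 genes, 120 were left out, among them C3, Ttr, Scd1 and Cyp2c29. Some members of the lists enter the counts but are not reported here by name.

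Groups came from the labels, and all columns of samples were mapped. Log2(scaled count + 1) was fitted with limma 3.58.1 (R 4.3.3) over 56 libraries in 14 groups with a variance trend, and genes with a Benjamini-Hochberg adjusted p under 0.05 were called. On simulated data for DRF against NRF at ZT12 over 25295 genes, 96% of changes of 1 and 98% of changes of 2 on the log2 scale were recovered, with 10 false calls of 204. The changes were placed only in genes with a mean of at least 1 scaled count. The simulated noise was normal with equal spread in all groups, so lower genes and unequal spreads were not covered. Named genes were the 12 largest increases and the 12 largest decreases (adjusted p under 0.05, a higher mean of at least 5, no overlap, no Gm or Rik names), and up to 6 members with the smallest p in each pathway list, with further members for their role. The 27 pathway and 10 marker lists and the rule were chosen with earlier results of these data known. Alternatives were the values as deposited, other scalings, pseudocounts of 0.1 and 10, a filter at a mean of 1, removal of a length trend, fewer libraries, a replicate block, no variance trend, ZT24 for ZT0 and leaving out each library. Python 3.11.15 with pandas 2.3.3, numpy 2.4.6, scipy 1.17.1 and matplotlib 3.10.9 did the rest.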

Additional observations from a re-analysis of the deposited data

Results flagged for a closer look

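A sample stood apart from the other 3 of its group, by Dixon's test at the 95% level, in 14 of 388 groups of 4 values, where chance flags about 1 in 20. In the DRF group these were Cry1 in replicate 4 (112.9 scaled counts), Hal in replicate 4 (295.2, low), Ppp1r3g in replicate 2 (0.149), Hbb-bt in replicate 3 (328, low), Mup7 in replicate 1 (7.62), Avpr1a in replicate 3 (32.2) and the summed scaled counts of replicate 2 (995848). In the NRF group they were, in replicate 2, Tubb2b (0.44), Angptl4 (21.96), Irs1 (48.7, low) and Cebpb (56), in replicate 3 Clpx (65.3, low) and Mcm2 (1.68), and in replicate 4 Ulk1 (53.2, low).

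The regimen difference at ZT12 departed from that at ZT0 in 5756 genes by the interaction term of the limma fit. For the largest increases at ZT12, the difference at ZT12 minus that at ZT0 was, on the log2 scale, 7.90 for Arntl, 7.51 for Tubb2a, 5.81 for Tubb2b, 5.57 for Ppp1r3c, 5.07 for Slc30a10, 4.74 for Ddc, 4.65 for Clpx, 4.50 for Cldn1, 4.33 for Lgalsl, 4.26 for Coq8a, 3.75 for Cyp2b10 and 3.35 for Acnat2. For the largest decreases it was -8.67 for Dbp, -6.54 for Per3, -6.32 for Rgs16, -6.29 for Usp2, -5.98 for Nr1d2, -5.41 for Gpcpd1, -5.09 for Upp2, -4.96 for Cux2, -4.56 for Pcsk4 and -3.89 for Rapgef4os1.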

How the results depend on the processing

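Fitting the 8 ZT12 libraries alone gave 1850 called genes, 857 higher and 993 lower. With the values as deposited, 1234 genes were lower, and genes that differed at least 2-fold numbered 679 with a pseudocount of 0.1 and 133 with one of 10; the cause was not tested. The other counts over all genes stayed within 1.5 times those reported, whereas counts of single lists moved by more where stated beside them, and the median of all genes lay between -0.017 and 0.036. Leaving out each library in turn gave 2976 to 3890 called genes, 1351 to 1814 higher, 1606 to 2076 lower, 322 to 358 at 2-fold and 5279 to 5728 with an interaction. All 24 genes ranked by size kept their calls in the alternatives run for them. Of 163 named genes called, 102 kept the call in every alternative run for them (17 or 18 a gene) and 61 lost it in at least 1, most often (52) with the ZT12 libraries alone; 2 uncalled genes gained one and none reversed. Replicate numbers did not pair the samples (correlations of same-numbered deviations 0.00579, -0.00457, -0.00768 and 0.0847), and a replicate block gave 3883 called genes, 1801 higher and 2082 lower. Recovered counts differ between libraries, and counts of low genes limit what can be detected.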

Other observations

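Antisense genes were called mostly in one direction. Of 1650 tested, 189 were called at ZT12, of which 33 (17.5%) were higher under DRF, and 237 at ZT0, of which 56 (23.6%) were higher. For 15097 protein-coding genes the shares were 48.9% of 3060 calls at ZT12 and 54.6% of 3184 at ZT0. Among 1076 lincRNA genes 36.3% of 113 calls at ZT12 and 38.7% of 142 at ZT0 were higher, and among 438 processed transcripts 12.5% of 48 and 36.5% of 52. The lean toward lower antisense calls under DRF thus had the same direction at both times, when feeding states were opposite, and was not tested.

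A pair of genes annotated as miRNA, Gm47287 and Gm47305, chosen after their values were seen, stood near 0 in some livers and high in others. Gm47287 was at 592, 808, 809 and 964 scaled counts in the DRF livers and at 0.00141, 0.00165, 0.00187 and 994 in the NRF livers. Gm47305 was at 647, 763, 925 and 842 in the DRF livers and at 0.00141, 0.00165, 0.00187 and 1006 in the NRF livers. NRF replicate 4 lay with the DRF livers in both genes. The low NRF values were the same in both genes and lie at the floor of the scale. At ZT0 both genes averaged 0.00198 under DRF and 0.00212 under NRF, so neither regimen was high there. Whether the high values come from the counting was not tested.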
